A study of Mus musculus with 24 samples.

Results

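Liver RNA of 3 female Cyp2b-null libraries and 3 female wild-type (WT) libraries, all from C57BL/6 animals kept on a diet with 60% fat (HFD) for 10 weeks, was compared gene by gene. These 6 libraries of the 24 in the series were chosen by their titles, which give genotype, diet and sex. The Cyp2b-null genotype lacks Cyp2b9, Cyp2b10 and Cyp2b13, and the label names no promoter, recombinase or cell type behind the loss. A further 6 female libraries, 3 Cyp2b-null and 3 WT, came from mice on normal chow (ND) and shared the fit. The series states its aim as finding what Cyp2b does in obesity caused by a fatty diet, at the level of the liver transcriptome.

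Cyp2b enzymes are cytochrome P450 monooxygenases of the endoplasmic reticulum that hydroxylate or epoxidise drugs, steroids and unsaturated fatty acids, and in liver the xenobiotic receptor CAR is their best known activator. Cyp2b9 and Cyp2b13 are known in mouse liver for higher expression in females. The genes lie in a cluster of Cyp2 genes that also holds the Cyp2a, Cyp2f and Cyp2g members.

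Deposited library totals ranged over 2.27 M to 2.57 M counts for Cyp2b-null HFD and over 2.24 M to 2.66 M counts for WT HFD. The genotype label disagreed with the title in all 3 WT HFD libraries, which it called Cyp2b-null, and in 0 of the 3 Cyp2b-null HFD libraries. It also disagreed in all 3 Cyp2b-null ND libraries. The genotype difference on HFD, the one on ND and the change between them thus all rest on the titles. Liver identity was plain in every library: 11 hepatocyte markers summed to between 82988 and 114485 CPM (counts scaled to library size, with TMM factors) in Cyp2b-null libraries and to between 100210 and 104713 in WT libraries. Levels of Cyp2b13 followed the titles on both diets. Libraries titled Cyp2b-null averaged 0 CPM on HFD and 0 CPM on ND, and those titled WT averaged 310 and 421 CPM. The first principal component of the 12 female libraries held 29.2% of the variance and set 5 of them apart, among them Cyp2b-null HFD library 2 and WT HFD library 1. In bulk liver, fewer cells of a type and less RNA per cell cannot be told apart.

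The missing genes define the genotype, and their promoters show how alike they are. RefSeq's windows (GRCm38.p6, plus strand, 250 bases before to 50 after the start) are chr7:26173159-26173458 for Cyp2b9 and chr7:26061245-26061544 for Cyp2b13, with capitals at the only bases that differ. They were identical at 298 of 300 bases, with T48C and C104T read from Cyp2b9 to Cyp2b13 and positions counted from 1 at the 5′ end of the window.

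Cyp2b9: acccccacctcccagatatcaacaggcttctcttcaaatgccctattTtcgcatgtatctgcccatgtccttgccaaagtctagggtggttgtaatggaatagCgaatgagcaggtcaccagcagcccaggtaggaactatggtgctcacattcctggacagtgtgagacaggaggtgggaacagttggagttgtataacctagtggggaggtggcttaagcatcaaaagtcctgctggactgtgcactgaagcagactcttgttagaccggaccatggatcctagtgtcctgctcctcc

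Cyp2b13: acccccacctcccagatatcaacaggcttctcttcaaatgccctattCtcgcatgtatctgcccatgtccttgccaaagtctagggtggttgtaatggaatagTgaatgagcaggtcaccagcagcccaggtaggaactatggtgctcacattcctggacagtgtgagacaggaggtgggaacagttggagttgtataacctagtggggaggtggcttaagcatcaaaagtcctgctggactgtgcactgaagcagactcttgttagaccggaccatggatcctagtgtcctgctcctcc

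Over the same kind of window, Cyp2b9 and Cyp2b10 matched at 223 of 289 aligned bases (77.2%). The Cyp2b9 and Cyp2b13 transcripts were 91.9% identical, and 10.8% of the 50-base windows of either occurred unchanged in the other, so that some reads could be assigned to either gene.

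Transcripts of the targeted genes were all but gone from Cyp2b-null libraries. Gene coordinates are on GRCm38, from GENCODE M21. Cyp2b9 (chr7:26173411-26210661) had 0, 2 and 4 counts in Cyp2b-null libraries, against 788, 859 and 1245 counts in WT libraries. Cyp2b13 (chr7:26061497-26096197) had 0 counts in each of the 3 Cyp2b-null libraries, against 627, 565 and 1096 counts in WT libraries. Cyp2b10 (chr7:25897620-25926624), the member most inducible by drugs, had 0, 4 and 0 counts in Cyp2b-null libraries, against 18, 14 and 97 counts in WT libraries. No Cyp2b-null library reached the lowest WT library for any of these genes, and WT library 3 was the highest WT library for each.

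Cyp2b9 averaged 0.811 ± 0.761 CPM in Cyp2b-null libraries and 392 ± 109 CPM in WT libraries (SD, n = 3 each). It fell by 8.82 ± 0.53 on the log2 scale (SE, 95% interval -9.95 to -7.69), with an adjusted p of 9.48e-07 in edgeR's quasi-likelihood test, and the pooled counts were 479-fold lower. Cyp2b13 fell at least 758-fold from counts pooled over each group, with the Cyp2b-null group set at 3 counts, and its adjusted p in edgeR was 4e-05. Cyp2b10 averaged 0.617 ± 1.07 CPM in Cyp2b-null libraries and 17.6 ± 19.4 CPM in WT libraries (SD, n = 3 each). Its log2 difference of -4.87 ± 1.20 (95% interval -7.52 to -2.22) was not called, with an unadjusted p of 0.00195 and an adjusted p of 1 in edgeR. Per kilobase of exon, the WT levels were 209 ± 57.8 CPM for Cyp2b9, 165 ± 65.6 CPM for Cyp2b13 and 8.33 ± 9.19 CPM for Cyp2b10 (SD, n = 3).

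**Figure D1:**
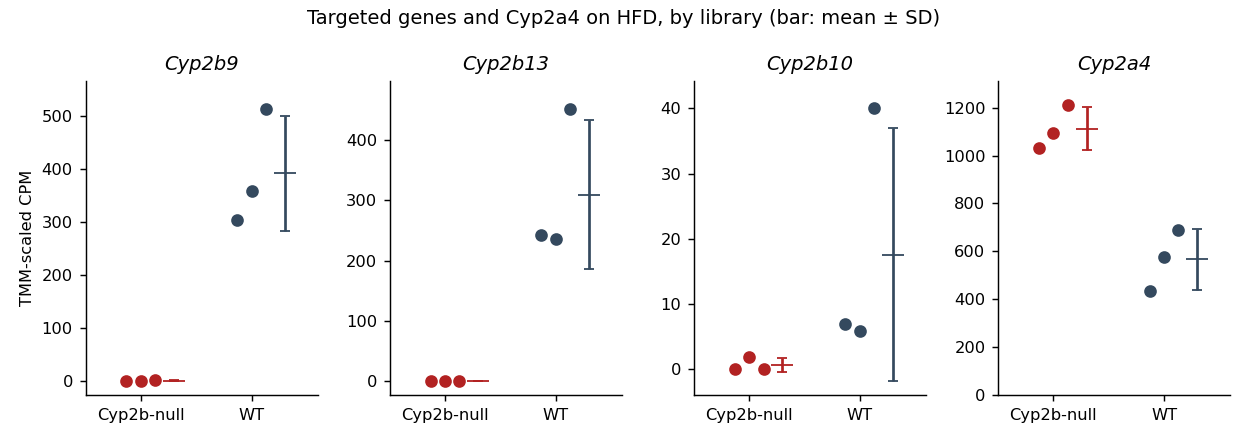
TMM-scaled CPM of Cyp2b9, Cyp2b13, Cyp2b10 and Cyp2a4 in each HFD library (points, Cyp2b-null in red and WT in dark blue), with bars for mean ± SD (n = 3); the vertical axes differ in range. The targeted genes lie near 0 in every Cyp2b-null library, whereas Cyp2a4 lies at 1033 CPM or more in Cyp2b-null libraries and at 690.4 CPM or less in WT libraries.

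Cyp2b9 and Cyp2b13 were the only genes called among the 11830 tested, both lower, which is 0.0169% of them (edgeR, adjusted p below 0.05). DESeq2 also called 2. Without the filter on low counts, edgeR called 12, of which 5 were higher and 7 lower, and with a term for the library side that the first component separates it called 1, Cyp2b13 then having an adjusted p of 0.289. At an unadjusted p below 0.05 stood 289 genes (2.44%), of which 117 (0.989% of those tested) were higher and 172 (1.45%) were lower. All 3 Cyp2b-null libraries lay above all 3 WT libraries for 400 genes (3.38%) and below them for 425 (3.59%). The median log2 difference of all genes was -0.01, and the central 90% ran from -0.60 to 0.52.

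The span of 313 kb from Cyp2b10 to Cyp2b9 also holds pseudogenes, and none of these had a count in Cyp2b-null libraries. Cyp2b27-ps had 0 counts over the 3 Cyp2b-null libraries and 12 over the 3 WT libraries, and the processed pseudogene Gm29920 had 0 and 16. Cyp2b26-ps had 0 counts in both groups. All were too low to be tested.

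The 6 other Cyp2 genes of the cluster that could be tested were all higher in Cyp2b-null libraries on HFD, by a median log2 difference of 0.55 and a range of 0.25 to 1.09, against 49.1% of all genes above 0 and 50.9% below. None was called, 3 had an unadjusted p below 0.05 and 2, Cyp2a4 and Cyp2a5, did not overlap between the groups. For all genes tested, 0.989% were higher at that p and 3.38% were higher without overlap. The summed level of the 11 listed members ran from 3823 to 5034 CPM in Cyp2b-null libraries and from 2174 to 3158 CPM in WT libraries. The 27 tested neighbours within 1 Mb that are not Cyp2 genes split evenly: 14 were higher and 13 lower, with a median of 0.01, and 0 had an unadjusted p below 0.05. The other 5 listed Cyp2 members, Cyp2b19, Cyp2b23, Cyp2s1, Cyp2t4 and Cyp2ab1, were too low to test. Of these, Cyp2ab1 does not lie within 1 Mb of the targeted genes, and it had at most 2 counts in any HFD library.

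Cyp2a4 (chr7:26307169-26315088), a steroid hydroxylase that starts 133.8 kb beyond the Cyp2b9 start, was at 1033, 1095 and 1210 CPM in Cyp2b-null libraries, against 436, 576 and 690.4 CPM in WT libraries. The lowest Cyp2b-null library thus stood well above the highest WT library. The log2 difference was 0.97 ± 0.22 (95% interval 0.49 to 1.45), with an unadjusted p of 0.00058, the lowest of the genes named here as higher, and an adjusted p of 1 in edgeR. Without the filter on low counts the adjusted p of Cyp2a4 was 0.0198 (edgeR), and the cause of that change was not tested. Its adjusted p was 0.124 in DESeq2.

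On ND, where edgeR called 15 genes (0.127%), Cyp2a4 was called as well: it averaged 1281 ± 171 CPM in Cyp2b-null libraries and 409.9 ± 96.9 CPM in WT libraries (SD, n = 3 each), with a log2 difference of 1.64 ± 0.23 and an adjusted p of 0.00679. The difference on HFD minus that on ND was -0.67 ± 0.31 and was not called, with an adjusted p of 1 in edgeR. The 6 tested Cyp2 genes of the cluster were not all higher on ND. There 3 were higher and 3 lower, with a median log2 difference of -0.02.

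Cyp2a5, the mouse coumarin 7-hydroxylase, was at 1752, 1887 and 2670.1 CPM in Cyp2b-null libraries, against 1416, 781 and 1379.6 CPM in WT libraries. The groups stood apart, but the WT libraries spread widely, and the log2 difference of 0.82 ± 0.34 was not called (adjusted p = 1, edgeR). The transcripts of Cyp2a4 and Cyp2a5 were 98.3% identical, and 36.1% of the 50-base windows of Cyp2a4 occurred in Cyp2a5, so the split of counts between them is uncertain. Cyp2g1, an olfactory-type P450, was at 18.0, 9.25 and 18.1 CPM in Cyp2b-null libraries, against 10.4, 2.92 and 7.83 CPM in WT libraries. Those groups overlapped. Cyp2a12, Cyp2a22 and Cyp2f2 differed by 0.28 ± 0.18, 0.27 ± 0.53 and 0.25 ± 0.33 on the log2 scale, each with a 95% interval that includes 0.

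The promoter windows of the Cyp2a pair are shown because their near identity goes with that of the transcripts. They are chr7:26306942-26307241 for Cyp2a4 and chr7:26835089-26835388 for Cyp2a5 (RefSeq, GRCm38.p6, plus strand). Of the 299 bases that align, 294 were identical. Capitals mark the 5 differences, C19T, T131C, G161A, G205T and T270C, read from Cyp2a4 to Cyp2a5 and counted from 1 at the 5′ end of the Cyp2a4 window.

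Cyp2a4: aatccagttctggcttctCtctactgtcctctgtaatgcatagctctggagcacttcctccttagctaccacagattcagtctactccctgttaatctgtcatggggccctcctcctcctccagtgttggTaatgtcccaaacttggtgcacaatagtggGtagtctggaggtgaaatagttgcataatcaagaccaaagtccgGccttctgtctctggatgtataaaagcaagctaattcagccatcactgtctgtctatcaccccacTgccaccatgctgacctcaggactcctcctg

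Cyp2a5: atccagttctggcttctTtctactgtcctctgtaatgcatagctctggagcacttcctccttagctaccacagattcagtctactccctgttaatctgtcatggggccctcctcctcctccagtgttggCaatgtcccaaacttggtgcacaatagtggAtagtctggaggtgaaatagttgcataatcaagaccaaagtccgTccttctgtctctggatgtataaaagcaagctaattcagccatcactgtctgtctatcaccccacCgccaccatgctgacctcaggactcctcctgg

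**Figure D2:**
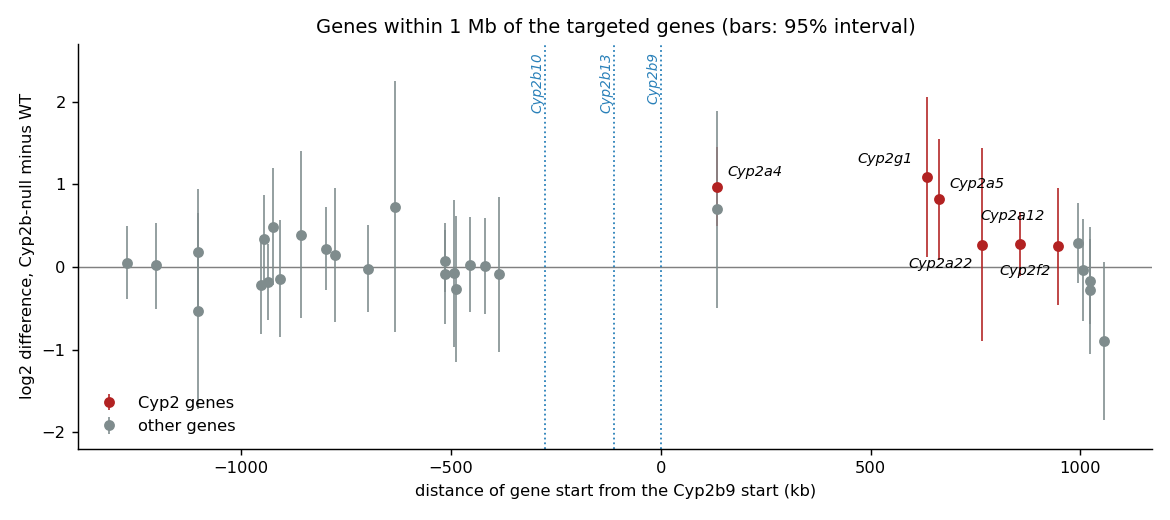
Log2 difference between Cyp2b-null and WT libraries on HFD (vertical axis, bars are 95% intervals) of the tested genes within 1 Mb of the targeted genes, by distance of the gene start from the Cyp2b9 start in kb (horizontal axis); dotted lines mark the targeted genes. The 6 Cyp2 genes (red) all lie above 0, and the 27 other genes (grey) lie on both sides of it.

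Genes of the circadian clock and its outputs tended to be higher in Cyp2b-null libraries on HFD, mainly against WT libraries 1 and 2. Of 22 tested, 16 were higher and 6 lower, with a median log2 difference of 0.48 against -0.01 for all genes. The summed level of the 24 listed genes ran from 1799.99 to 1942 CPM in Cyp2b-null libraries and from 1117 to 1858 CPM in WT libraries, so the groups overlapped. Por, the electron donor of the microsomal P450 enzymes, gave the most to that sum. It was at 560, 570 and 631 CPM in Cyp2b-null libraries, against 329, 312 and 561 CPM in WT libraries. Without WT library 1 the median was 0.32, and without WT library 3 it was 0.88. None was called. 7 were higher and 2 lower at an unadjusted p below 0.05, and 6 higher and 1 lower did not overlap between the groups. Among all genes tested, 0.989% were higher and 1.45% lower at that p, and 3.38% and 3.59% did not overlap. The clock runs as a loop in which Clock and Arntl activate Per, Cry and Nr1d genes, whose products repress them in turn, and Dbp, Tef and Hlf carry the rhythm to output genes through D-box elements. The labels give no time of day of collection.

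Per3, a period protein of the repressor arm, was at 29.3, 16.2 and 22.6 CPM in Cyp2b-null libraries, against 6.95, 8.33 and 10.7 CPM in WT libraries. The groups did not overlap, and the log2 difference was 1.39 ± 0.33 (95% interval 0.68 to 2.10, adjusted p = 1 in edgeR). Dbp, an activator that binds the D-box, was at 225, 237 and 299.8 CPM in Cyp2b-null libraries, against 168, 89.5 and 154 CPM in WT libraries, and differed by 0.89 ± 0.27 (adjusted p = 1, edgeR).

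Usp2 (chr9:44067021-44095627), a deubiquitinating enzyme whose transcript follows the clock, was at 36.4, 36.1 and 46.8 CPM in Cyp2b-null libraries, against 7.34, 1.25 and 21.0 CPM in WT libraries. The Cyp2b-null libraries were alike and the WT libraries were not. Usp2 differed by 2.01 ± 0.54 on the log2 scale (adjusted p = 1, edgeR). Without WT library 3 it was called higher, at 3.18 with an adjusted p of 0.0295, and without the filter on low counts it had an adjusted p of 6.28e-06 (edgeR).

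Other clock genes stood on both sides of 0. Among those higher in Cyp2b-null libraries, the log2 difference was 1.80 for Ciart, a repressor, 1.28 for the kinase Wee1, 0.56 for Hlf and 0.50 for Tef. The libraries of Ciart and Hlf overlapped, and Ciart was low, at a log2 CPM of 0.695 in WT library 1. Those of Wee1 and Tef did not overlap, but narrowly. WT library 3 had a log2 CPM of 4.42 for Wee1, against 4.47 in the lowest Cyp2b-null library. Por, also counted among the CAR and PXR targets, differed by 0.55, with libraries that overlapped. Clock was at 18.4, 13.0 and 10.6 CPM in Cyp2b-null libraries, against 21.2, 32.5 and 18.5 CPM in WT libraries. It was thus lower, by -0.78 ± 0.32. Its libraries did not overlap, but narrowly, with 18.4 CPM in Cyp2b-null library 1 against 18.5 CPM in WT library 3. Nfil3, a repressor at D-boxes, and Arntl each differed by -1.17, with libraries that overlapped. None of these was called.

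On ND the same list had a median of 0.68, with Per3 at 2.58 ± 0.42 (adjusted p = 0.0268) and Dbp at 2.71 ± 0.29 (adjusted p = 0.000499), both called by edgeR. The difference on HFD minus that on ND was -1.82 ± 0.39 for Dbp, with an unadjusted p of 0.00029 and an adjusted p of 0.407, and -1.19 ± 0.54 for Per3 with an adjusted p of 1 (edgeR). Across all genes, edgeR called this change in the genotype difference between the diets in 0 genes (0%). At an unadjusted p below 0.05 it had 342 (2.89%), and DESeq2 called 10. HFD was not compared with ND within either genotype.

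The promoter of Per3 is shown for its D-boxes. RefSeq's window at chr4:151044616-151044915 (GRCm38.p6, minus strand) holds the letters TTATGTAA at positions 46 and 93, which is 205 and 158 bases before the start. Capitals mark them.

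Per3: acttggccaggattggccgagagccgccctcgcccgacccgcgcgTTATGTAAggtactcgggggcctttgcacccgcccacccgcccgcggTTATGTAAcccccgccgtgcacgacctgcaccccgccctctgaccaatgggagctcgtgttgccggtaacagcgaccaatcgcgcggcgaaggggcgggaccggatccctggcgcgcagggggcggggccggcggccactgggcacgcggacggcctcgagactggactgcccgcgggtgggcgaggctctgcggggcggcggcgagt

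That motif, searched on both strands, occurred in 308 of 32851 promoter windows (0.938%), and in 1 of the 18 clock genes that had a window. The E-box CACGTG, searched in the same way, occurred in 2349 windows (7.15%) and in 5 of the 18, those of Ciart, Cry1, Per1, Tef and Tspan4.

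Stress response transcripts, from the unfolded protein response of the endoplasmic reticulum (ER) and from the integrated stress response, leaned the other way. Of 28 tested, 26 were lower in Cyp2b-null libraries and 2 higher, with a median log2 difference of -0.43. None was called, 2 were lower at an unadjusted p below 0.05, and 1, Syvn1, did not overlap between the groups. Over all genes tested, 1.45% were lower at that p and 3.59% were lower without overlap. Besides Syvn1, the lowest were Sdf2l1 at -1.71, Creld2 at -1.48, Manf at -1.06 and the chaperone Hyou1 at -1.04.

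Syvn1 (chr19:6046576-6053712), the ubiquitin ligase of ER-associated degradation, was at 41.5, 48.1 and 32.1 CPM in Cyp2b-null libraries, against 48.7, 160.3 and 139 CPM in WT libraries. WT library 1 lay just above the highest Cyp2b-null library and far below the other WT libraries. Syvn1 differed by -1.52 ± 0.38 (adjusted p = 1, edgeR). Leaving out 1 HFD library, the difference ran from -1.88 to -1.20. It was called only without WT library 1, the WT library nearest the Cyp2b-null ones, at -1.88 with an adjusted p of 0.0242 (edgeR). Without the filter on low counts Syvn1 had an adjusted p of 1.13e-05 (edgeR), and the cause of that change was not tested.

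Hspa5, the ER chaperone BiP, showed the same split. It was at 458, 624 and 387 CPM in Cyp2b-null libraries, against 258, 1319 and 1252 CPM in WT libraries, a log2 difference of -0.95 ± 0.57 (adjusted p = 1, edgeR). WT library 1 was the lowest of the 6 and the other WT libraries the highest. The summed level of the 29 listed genes ran from 3269 to 4945 CPM in Cyp2b-null libraries and from 2999.7 to 7007 CPM in WT libraries, and the median without WT library 1 was -0.66. Sec11c, a catalytic subunit of the ER signal peptidase outside that list, was at 12.5, 17.1 and 16.2 CPM in Cyp2b-null libraries, against 28.2, 34.6 and 27.2 CPM in WT libraries, without overlap.

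**Figure D3:**
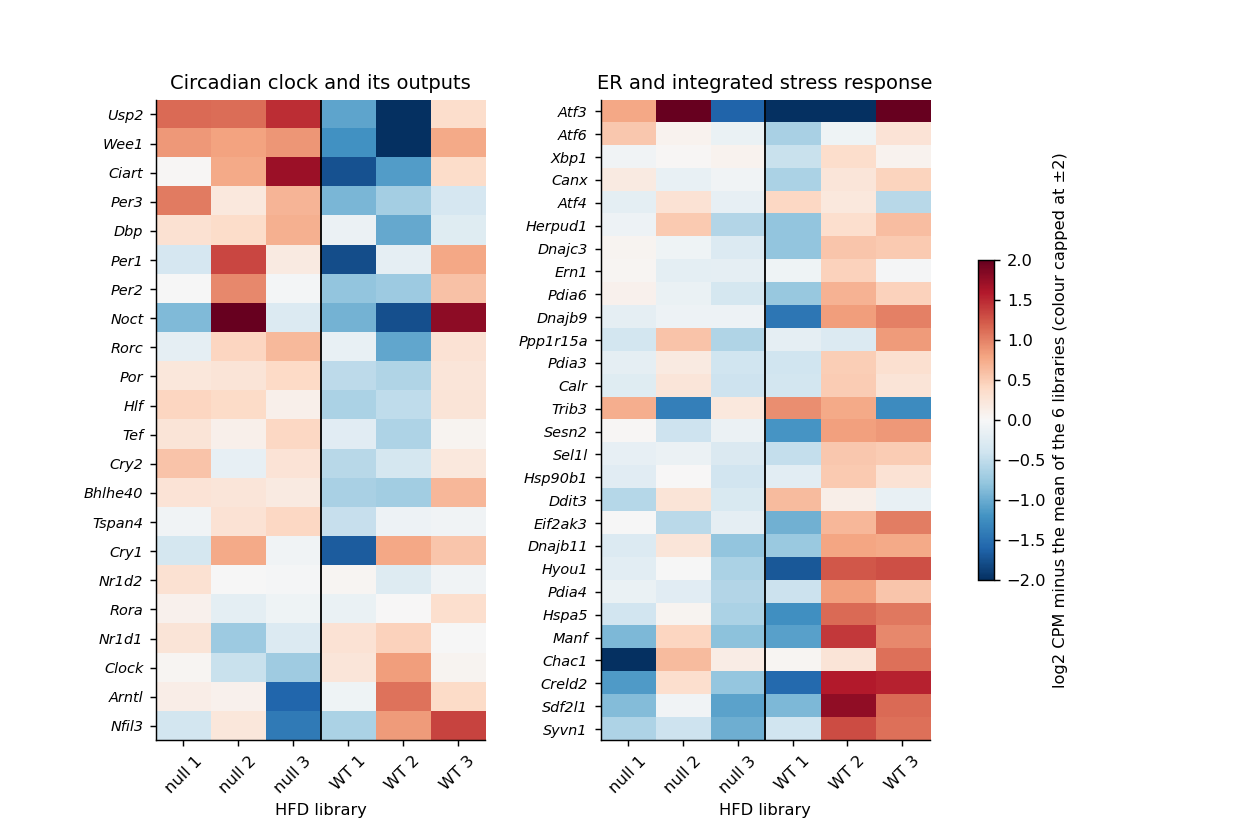
Log2 CPM of each tested clock gene (left) and ER and integrated stress response gene (right) in the 6 HFD libraries, minus the gene's mean over them, with colour capped at ±2; rows run from the highest to the lowest difference. Many clock genes are redder in the Cyp2b-null columns than in WT 1 and WT 2, whereas WT 3 is about as red as the Cyp2b-null columns for several of them, and many ER genes are blue in WT 1 and red in WT 2 and WT 3.

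Among the genes of lipid metabolism, those of fatty acid oxidation leaned upward by small amounts. Of 45 PPAR-alpha targets and oxidation genes tested, 40 were higher in Cyp2b-null libraries and 5 lower, with a median log2 difference of 0.14. None was called, and 2 had an unadjusted p below 0.05: the peroxisomal acyl-CoA thioesterases Acot3 and Acot4. Both were higher, as were 0.989% of all genes tested at that p. Without Cyp2b-null library 2, 29 were higher and 16 lower, with a median of 0.09, and without WT library 3 the median was 0.25.

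Acot3 (chr12:84052144-84060402) was at 321, 266 and 436 CPM in Cyp2b-null libraries, against 110.05, 111 and 182 CPM in WT libraries. It differed by 1.34 ± 0.32 (95% interval 0.67 to 2.02, adjusted p = 1 in edgeR). Without the filter on low counts its adjusted p was 3.98e-05 (edgeR), and the cause of that change was not tested. Acot4 was at 95.5, 86.5 and 95.8 CPM in Cyp2b-null libraries, against 46.7, 39.6 and 73.0 CPM in WT libraries, and differed by 0.80 ± 0.23. Neither gene overlapped between the groups. Cpt1a, which admits fatty acids to mitochondria, differed by 0.28, with libraries that overlapped.

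Scd1 (chr19:44394455-44407879), which makes oleate and palmitoleate from saturated fatty acids, was at 2359, 2185 and 2729.7 CPM in Cyp2b-null libraries, against 4155, 4415 and 3680.1 CPM in WT libraries. The highest Cyp2b-null library stayed below the lowest WT library, and the log2 difference was -0.75 ± 0.21 (95% interval -1.20 to -0.30, adjusted p = 1 in edgeR). On ND it was higher in Cyp2b-null libraries, by 0.64 ± 0.21 (adjusted p = 0.49, edgeR). The difference on HFD minus that on ND was -1.39 ± 0.30, with an unadjusted p of 0.000309 and an adjusted p of 0.407 in edgeR, and it was called with the term for library side and by DESeq2.

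The other genes of fatty acid and triglyceride synthesis did not follow Scd1 as a group. Of 26 tested, Scd1 among them, 12 were higher and 14 lower, with a median of -0.05. Without WT library 3, 16 were higher and 10 lower, with a median of 0.12. None was called, and 2 were lower at an unadjusted p below 0.05 (edgeR), as were 1.45% of all genes tested. Scd1, Pnpla3 and Me1 were lower without overlap, as were 3.59% of all genes tested. In either way 0 of the 26 were higher. Pnpla3, a lipid droplet hydrolase, was at 7.04, 6.94 and 7.54 CPM in Cyp2b-null libraries, against 9.65, 20.8 and 11.1 CPM in WT libraries, and differed by -0.94 ± 0.34 (adjusted p = 1, edgeR). Fasn, the fatty acid synthase, differed by -0.25 and Acaca by 0.03, both with overlapping libraries. The summed level of the 27 listed genes, to which Scd1 gave the most, ran from 6325 to 6424 CPM in Cyp2b-null libraries and from 7152 to 8332 CPM in WT libraries.

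Genes of the lipid droplet coat and of lipolysis were mostly higher, with 16 of 18 above 0 and a median of 0.20. G0s2, an inhibitor of the triglyceride lipase Pnpla2, was at 103, 158 and 137 CPM in Cyp2b-null libraries, against 89.6, 69.1 and 81.2 CPM in WT libraries, and differed by 0.73 ± 0.28 (adjusted p = 1, edgeR). Genes of fatty acid uptake, binding and lipoprotein assembly stood on both sides, with 12 higher and 14 lower and a median of -0.05. Among these Cd36, a fatty acid carrier of the cell surface, was at 38.0, 113 and 107 CPM in Cyp2b-null libraries, against 28.2, 48.7 and 69.7 CPM in WT libraries. Its groups overlapped, with Cyp2b-null library 1 within the range of the WT libraries. Plin2, the main droplet coat protein of hepatocytes, differed by 0.14 ± 0.20.

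Genes that make or oxygenate polyunsaturated fatty acids, a substrate class of Cyp2b enzymes, differed little. Of 32 tested, 24 were higher and 8 lower, with a median of 0.14 (0.06 without Cyp2b-null library 2), and 0 had an unadjusted p below 0.05. Fads1 and Fads2, the desaturases, differed by 0.09 and 0.30, and Elovl5, an elongase, by -0.37. Ephx2, which hydrolyses fatty acid epoxides, differed by 0.15. The Cyp2c enzymes, of which 11 of 12 were above 0, had a median of 0.08, and the Cyp3a enzymes a median of 0.27 with 7 of 8 above 0. Other targets of CAR and PXR had a median of 0.09 over 28 genes, with Cyp2a5 and Por the only ones at an unadjusted p below 0.05. Both were higher, as were 0.989% of all genes tested at that p.

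**Figure D4:**
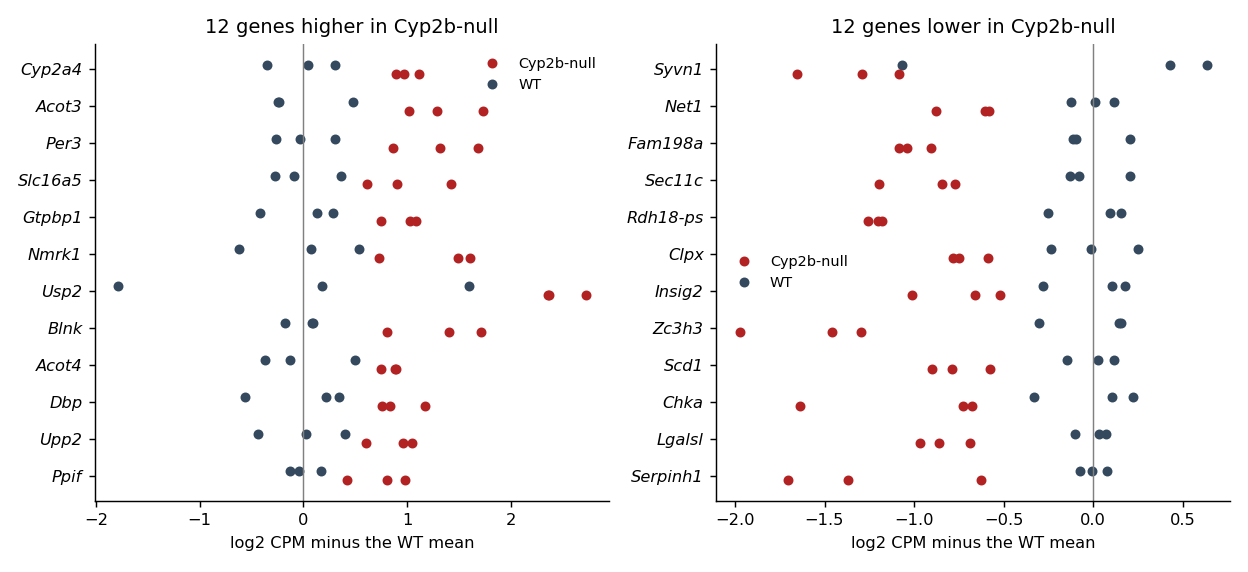
Log2 CPM of each HFD library minus the gene's WT mean, for the 12 genes named as higher (left) and the 12 named as lower (right) in Cyp2b-null libraries by smallest unadjusted p among genes without overlap. By that choice the Cyp2b-null points (red) lie to one side of the WT points (dark blue); none of these genes was called, and the WT points of Usp2 and Syvn1 are the most scattered.

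Beyond those pathways, the genes named by the smallest unadjusted p were of mixed function. Slc16a5, a monocarboxylate transporter family member, was at 47.3, 38.4 and 68.3 CPM in Cyp2b-null libraries, against 20.5, 23.3 and 32.2 CPM in WT libraries. It differed by 1.02 ± 0.25 on HFD and by -0.07 ± 0.25 on ND. The difference on HFD minus that on ND had an adjusted p of 1 (edgeR). Nmrk1 phosphorylates nicotinamide riboside on the way to NAD. It was at 30.9, 57.4 and 53.2 CPM in Cyp2b-null libraries, against 27.0, 11.7 and 19.4 CPM in WT libraries. Nmrk1 was not called with the filter on low counts. Without it the adjusted p was 0.00394 (edgeR), and the cause of that change was not tested. Upp2, a uridine phosphorylase, Ppif, the cyclophilin of the mitochondrial permeability pore, and Gtpbp1 differed by 0.85, 0.77 and 0.99. Blnk, an adaptor of B-cell receptor signalling, differed by 1.63 at no more than 9.43 CPM in any of these libraries.

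Among the lower genes, Insig2, which holds the sterol sensor SCAP in the ER, was at 86.1, 78.2 and 61.1 CPM in Cyp2b-null libraries, against 101.95, 133 and 140.2 CPM in WT libraries. Chka, the choline kinase that starts phosphatidylcholine synthesis, was at 19.2, 19.9 and 9.80 CPM in Cyp2b-null libraries, against 34.8, 37.9 and 25.6 CPM in WT libraries. Both were lower without overlap, by -0.74 ± 0.20 and -1.01 ± 0.29. On ND the differences were -0.59 for Insig2 and -1.40 for Chka, which had an adjusted p of 0.0695 there (edgeR).

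Clpx, the ATPase of a mitochondrial matrix protease, differed by -0.72 ± 0.20 on HFD and -0.99 ± 0.20 on ND, Net1, an exchange factor for RhoA, by -0.70 ± 0.18 and -0.78 ± 0.18, and the galectin-like Lgalsl by -0.89 ± 0.25 and -1.24 ± 0.25. The comparison on ND used other libraries, and none of these 3 genes was called on either diet. Serpinh1, the collagen chaperone Hsp47, was at 16.8, 9.71 and 7.54 CPM in Cyp2b-null libraries, against 25.1, 27.9 and 26.4 CPM in WT libraries. It differed by -1.21 ± 0.35 on HFD and by 0.20 ± 0.34 on ND. Fam198a, Zc3h3 and the pseudogene Rdh18-ps differed by -1.09, -2.25 and -1.39.

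Genes with higher expression in female than in male liver, of which Cyp2b9 and Cyp2b13 are members themselves, leaned upward once those were left out. Of 37 tested, 29 were higher in Cyp2b-null libraries and 8 lower, with a median log2 difference of 0.38. 4 were higher at an unadjusted p below 0.05, namely Cyp2a4, Acot3, Acot4 and Cd36. The share of all genes tested that were higher at that p was 0.989%. The median was 0.22 without Cyp2b-null library 1 and 0.23 without Cyp2b-null library 2. Male-biased genes had a median of 0.02, with 16 of 27 above 0. Interferon response genes were above 0 for 27 of 32, with a median of 0.36 that was 0.04 without Cyp2b-null library 3, and 0 had an unadjusted p below 0.05.

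Stellate cell and matrix markers were mostly lower in Cyp2b-null libraries on HFD. Of 21 tested, 17 were lower and 4 higher, with a median of -0.36, and 3 were lower at an unadjusted p below 0.05, namely Col3a1, Col4a1 and Ecm1. The share of all genes tested that were lower at that p was 1.45%. The summed level of the 23 listed genes ran from 553 to 646 CPM in Cyp2b-null libraries and from 673 to 872 CPM in WT libraries, without overlap. Col3a1, a fibrillar collagen, was at 12.5, 19.0 and 23.8 CPM in Cyp2b-null libraries, against 21.2, 42.1 and 36.3 CPM in WT libraries, and Cyp2b-null library 3 lay above WT library 1. The stellate marker Lrat was higher, by 0.52, and Pdgfra, Acta2 and Pdgfrb were also above 0. The median was -0.27 without WT library 2 and -0.26 without WT library 3, and none of these genes was called. On ND the list leaned the other way, with 15 higher and 6 lower in Cyp2b-null libraries and a median of 0.21.

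Markers of other cells gave the following levels beside these results, and their part in any of them was not tested. Kupffer cell and macrophage markers summed to between 667 and 1212 CPM in Cyp2b-null libraries and to between 574 and 1029 CPM in WT libraries, with 15 of 21 higher and 6 lower. Without Cyp2b-null library 3, 9 were higher and 13 lower. Aif1 differed by 1.39 ± 0.52 (adjusted p = 1, edgeR). Sinusoidal endothelial markers summed to between 312 and 375 CPM in Cyp2b-null libraries and to between 357 and 452 CPM in WT libraries, with 12 of 15 lower. Cholangiocyte markers summed to between 31.3 and 48.6 CPM in Cyp2b-null libraries and to between 42.1 and 71.7 CPM in WT libraries, with Cldn7 at 0 in all 6 libraries. No lymphocyte or neutrophil marker passed the filter on low counts, and 8 of 12 neutrophil markers, among them Ly6g, Mpo and Elane, were at 0 in all 6. Genes known to be expressed in liver, such as Apoc2, Apoc4 and Prodh, were also at 0 in all 6, so a 0 in this table does not by itself show that a transcript is absent. Adipocyte markers summed to between 69.4 and 97.3 CPM in Cyp2b-null libraries and to between 67.5 and 90.7 CPM in WT libraries.

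Mitochondrially encoded genes took 3.85% to 6.52% of the counts in Cyp2b-null libraries and 4.28% to 8.54% in WT libraries. All 13 were lower in Cyp2b-null libraries, with a median of -0.27, but without WT library 1, which had the highest share, all 13 were higher, with a median of 0.17. Of the pancreas and gut markers 11 of 18 were at 0 in all 6 libraries, and Cela2a was at 14.5, 11.6 and 13.2 CPM in Cyp2b-null libraries, against 9.27, 6.66 and 2.47 CPM in WT libraries.

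**Figure D5:**
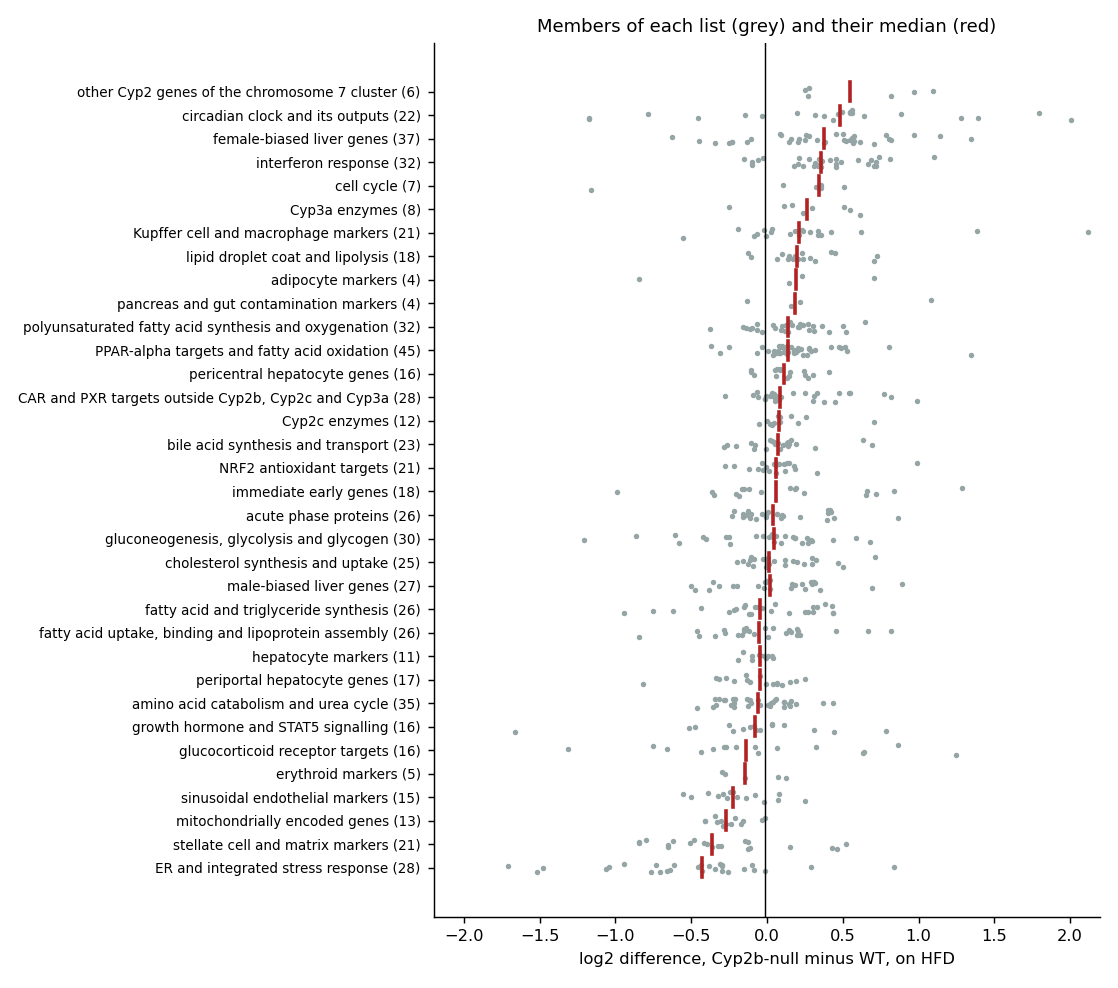
Log2 difference between Cyp2b-null and WT libraries on HFD of each tested member (grey points) of the 34 gene lists with at least 4 tested members, with the list median as a red bar, the number tested in brackets and the median of all genes as a black line; the targeted genes are left out. The medians run from 0.55 for the other Cyp2 genes and 0.48 for the clock to -0.43 for the ER and integrated stress response.

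The remaining lists of liver function had medians between -0.14 and 0.11. The median log2 difference was 0.02 for cholesterol synthesis and uptake (25 genes), 0.07 for bile acid synthesis and transport (23), 0.04 for acute phase proteins (26), -0.06 for amino acid catabolism and the urea cycle (35) and 0.06 for NRF2 targets (21). Glucose metabolism had a median of 0.04 over 30 genes, with Foxo1, a transcription factor of gluconeogenesis, at 36.4, 29.6 and 27.2 CPM in Cyp2b-null libraries, against 18.9, 21.2 and 21.8 CPM in WT libraries. Pericentral genes had a median of 0.11 and periportal genes of -0.05. Growth hormone and STAT5 genes had a median of -0.08, glucocorticoid receptor targets of -0.14 and immediate early genes of 0.06. Some of these medians hung on single libraries. Leaving out 1 library, they ran from -0.59 to 0.92 for immediate early genes and from -0.34 to 0.26 for cholesterol synthesis and uptake. For glucocorticoid receptor targets they ran from -0.32 to 0.21. Among the immediate early genes, Ier5 differed by -0.99 ± 0.45. The 7 cell cycle genes tested had a median of 0.35, with 6 higher, and Ccne2, a G1 cyclin, was lower, by -1.16 ± 0.46 (adjusted p = 1, edgeR).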

How the data were processed

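The series holds 24 liver RNA-seq libraries. The 12 female ones are used here and the 12 male ones were not analysed here. Female RNA was extracted with Trizol and libraries made with an NEB Next Ultra kit, per the labels' protocols. The authors deposited 1 table of whole-number read counts for the females, by gene symbol and not normalized. The submitters' processing notes list the build GRCm38.p5 and the tools GSNAP, Subread, edgeR, Trimmomatic and FastQC. Settings and strandedness were not given in the sources used here, so reads shared by close paralogues, or by a gene and its antisense partner, may have been split or dropped.

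Of 46095 symbols, 27 were dates made by a spreadsheet. Their counts, no more than 0.153% of any library, were kept in the totals, and none was tested. Totals of the 12 libraries ran from 2.01 M to 2.66 M counts, and genes at a few CPM rest on a few counts. Nothing in the labels ties a library to 1 animal, so a p-value here measures the spread between libraries, which may be technical. No pair within an HFD group agreed within sampling noise (chi-square per degree of freedom at least 5.72).

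The 12 libraries were fitted in edgeR 4.0.16 (R 4.3.3) by its quasi-likelihood method, with a term for each group, TMM factors, robust dispersions and filterByExpr by group as the filter on low counts. The test used Benjamini-Hochberg adjustment over the 11830 genes left and a call at an adjusted p below 0.05. The common dispersion had a square root of 0.269. The contrasts were Cyp2b-null minus WT on HFD and its difference from that on ND. These share their HFD libraries. Log2 levels used a prior count of 2, and a group with 0 counts was set at 3, which covers counting error only. The alternatives were DESeq2 1.42.0, RLE scaling, no filter, HFD libraries alone, a replicate block, a term for library side and leaving out each library.

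Replicate numbers come from the titles. Deviations of same-numbered Cyp2b-null and WT HFD libraries correlated at -0.262, -0.243 and 0.00492, so the numbers were not taken as pairs.

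The 38 lists (867 entries), the libraries and the rule for naming genes were chosen with earlier results of these data known. The rule names the targeted and called genes, the 12 highest and 12 lowest genes by smallest unadjusted p whose libraries do not overlap, leaving out clone or predicted names and genes whose log2 CPM averages below 1, the best member of each list if its unadjusted p is below 0.05, and the tested Cyp2 genes of the cluster. Other list members were named after their values were seen. Sequences are RefSeq's and gene coordinates GENCODE M21's, both on GRCm38.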

Additional observations from a re-analysis of the deposited data

How the results depend on the processing

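Cyp2b9 and Cyp2b13 were the genes called under RLE scaling, with the HFD libraries alone, by DESeq2 and with the replicate block (2 genes each). Whether the replicate numbers pair the libraries is not known, and the block left the diet interaction at 0. Leaving out 1 library gave 2 to 4 calls for the genotype difference and 0 to 1 for the interaction. The added calls were Syvn1 without WT HFD library 1, Usp2 and Gm34654 without WT HFD library 3, and, for the interaction, Angptl8 without WT HFD library 1. Without the filter on low counts there were 12 calls and 23 for the interaction, and the cause was not tested. With the term for library side there was 1 call, Cyp2b9, and 2 for the interaction, Arrdc3 and Scd1. DESeq2 called 10 for the interaction.

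Cyp2a22 ran from -0.18 to 0.59 when 1 library was left out, being -0.18 without Cyp2b-null HFD library 2 and -0.01 without WT HFD library 2. Over the named genes and their alternatives, 468 values kept direction and side of the threshold, 7 passed it, 1 no longer did and 2 turned. Of the list medians, 374 moved by less than the spread between libraries and 22 by more. Leaving out 1 library, the medians ran from 0.32 to 0.88 for the clock, from -0.66 to -0.31 for the ER and integrated stress response, from 0.40 to 0.76 for the other Cyp2 genes (0.30 without the filter) and from -0.43 to -0.26 for stellate markers. At these library totals, differences of genes at a few CPM were poorly resolved.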
